A study of Homo sapiens with 4 samples.

Results

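Hippo signalling is a kinase cascade that restrains growth in many epithelia, the liver among them. Its kinases LATS1 and LATS2 phosphorylate the co-activators YAP1 and TAZ (gene *WWTR1*) and hold them in the cytoplasm, and unphosphorylated YAP1 and TAZ enter the nucleus, bind the TEAD factors and switch on genes such as *CCN1* and *CCN2*. Several targets, *LATS2* and *AMOTL2* among them, encode inhibitors of YAP1 and so close a feedback loop. The genes described here were chosen by symbol as 10 parts of this pathway, and all 10 are among the 28278 genes of the count table and among the 15150 genes tested. They are the co-activators *YAP1* and *WWTR1*, the DNA-binding partners *TEAD1* and *TEAD4*, the kinases *LATS1* and *LATS2*, the scaffold proteins *AMOTL2* and *AJUBA*, and the secreted matrix proteins *CCN1* and *CCN2*.

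RNA was sequenced from HepG2 cells, a human liver cancer line, in 4 libraries. Control cells carried lentiviral Cas9 with a control sgRNA and the other cells carried Cas9 with an sgRNA against *USP22*, a histone deubiquitinase of the SAGA complex, as selected populations rather than named single clones. Both groups had 2 libraries and both were treated with 10 µM Sorafenib, a multikinase inhibitor, for 24 h, so no untreated level is compared here. Nothing in the labels says whether the libraries of a group came from separate cultures, so the p-values measure the spread between libraries, which may be technical.

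Some facts of these libraries bear on every value. The totals ranged from 62030307 to 64728272 counts. *USP22* itself had 16450 and 16537 counts in control and 20279 and 20368 in those labelled *USP22* knockout. Its transcript was thus slightly higher there (log2 fold change 0.22, edgeR adjusted p = 0.000394), and each direction below follows the label. The paper reports a check of the knockout by Western blot, which measures protein, and the counts used here hold no protein measure. Of 16 hepatocyte markers, 9 were at 0 in all 4 libraries, *ALB*, *APOB* and *TTR* among them, and no other exceeded 19 counts, so the labelled cell type lacked its defining transcripts. Of 8 fibroblast and stellate cell markers, *DCN* and *LUM* were called higher and *PDGFRB* and *ACTA2* were called lower in the libraries labelled *USP22* knockout. The summed level of these 8 was 654 to 658 CPM (the count scaled to a common TMM-adjusted library size) in control and 907 to 908 CPM in the libraries labelled knockout. Most of this sum was *COL3A1*, at a mean of 503 CPM in control and 573 in the others, which was not called. The rise of the sum was not *COL3A1* alone. *LUM* went from a mean of 65.1 CPM in control to 184.7 in the others, and *DCN* from 9.81 to 78.2. The falls were smaller in CPM, from 8.91 to 4.53 for *PDGFRB* and from 12.3 to 6.58 for *ACTA2*. *COL1A2* had at most 7 counts and *THY1* had 12 to 31, and *COL1A1* and *THY1* did not pass the test. Of the bile duct markers, *KRT7* was called lower, from a mean of 2277 CPM in control to 1255 in the others. *SOX9*, with 608 to 790 counts, fell by less than 1.5-fold (-0.31). *KRT19* was at 0, and *EPCAM* and *CFTR* had at most 4 counts. *CD68*, with 4498 and 4610 counts in control, was called lower (-0.70), and no other leukocyte or endothelial marker exceeded 17 counts. The part of these markers in the results below was not tested.

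The starts of *CCN2*, *AMOTL2* and *LATS2*, 3 genes known as YAP1 targets, are shown because the first 2 fell and the third rose. Each line gives the 250 bases before a RefSeq start on GRCh38.p14, 5′ to 3′ on the gene's minus strand, at chr6:131951373-131951622 for *CCN2*, chr3:134374448-134374697 for *AMOTL2* and chr13:21061587-21061836 for *LATS2*. Capitals mark GGAATG, the core that TEAD factors bind, or its reverse complement CATTCC.
CCN2: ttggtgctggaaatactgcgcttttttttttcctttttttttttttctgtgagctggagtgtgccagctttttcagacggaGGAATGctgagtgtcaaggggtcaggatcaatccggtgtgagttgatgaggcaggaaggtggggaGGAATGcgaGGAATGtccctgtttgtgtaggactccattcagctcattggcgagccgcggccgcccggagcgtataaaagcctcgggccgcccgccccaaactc
AMOTL2: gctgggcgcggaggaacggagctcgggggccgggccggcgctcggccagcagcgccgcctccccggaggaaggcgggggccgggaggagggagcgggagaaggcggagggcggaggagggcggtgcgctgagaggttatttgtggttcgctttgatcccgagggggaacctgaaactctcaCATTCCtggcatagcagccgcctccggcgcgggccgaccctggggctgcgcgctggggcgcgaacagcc
LATS2: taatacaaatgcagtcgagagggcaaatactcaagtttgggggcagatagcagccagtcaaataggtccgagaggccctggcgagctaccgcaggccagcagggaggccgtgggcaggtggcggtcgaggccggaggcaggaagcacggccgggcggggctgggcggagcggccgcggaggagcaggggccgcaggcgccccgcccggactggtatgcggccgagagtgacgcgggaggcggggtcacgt
The *CCN2* window holds GGAATG 3 times, with first bases at -169, -104 and -95 from the start. One of the 2 listed *AMOTL2* starts holds CATTCC 1 time, at -69, and the other start holds neither. *LATS2* holds neither in this window. Of the 10 genes, 7 have a listed start, with 11 starts between them. Counted by start, 4 of the 11 hold the core, 1 each of *CCN2*, *AMOTL2*, *YAP1* and *AJUBA*, and 11.9% of all 35116 listed starts do. For *AMOTL2* and *AJUBA* the window that holds it lies inside the annotated gene. Genes that hold the core moved in both directions, and a link between the core and the direction of change was not tested. *CCN2* (log2 fold change -0.69) and *AMOTL2* (-1.22) hold it and fell, and *YAP1* (0.19) and *AJUBA* (0.51) hold it and rose. With GC content and transcript length corrected for, *YAP1* no longer passed the test. *WWTR1* (-0.23) holds none and fell, and *LATS2* (0.28) holds none and rose. In the target signature described below, 8 of 18 listed starts hold the core. There *ANKRD1* and *NUAK2* hold it 2 times each and *AXL* holds it at 1 listed start, and these genes were called lower. *PTPN14* holds it and rose, and *FOXF2* and *TGFB2* hold it and did not pass the test. *MYOF*, *IGFBP3* and *NT5E* hold none and fell. A match of letters is a description and not a bound site. *CCN1*, *TEAD1* and *TEAD4* have no entry.

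The 10 genes moved in both directions, and the 2 called genes were both lower. A gene was called where edgeR's quasi-likelihood test gave a Benjamini-Hochberg adjusted p below 0.05 and the change was at least 1.5-fold. *AMOTL2* and *CCN2* were called lower and 0 genes were called higher, against 7.25% and 8.88% of all tested genes. With the fold left aside, *YAP1*, *LATS2* and *AJUBA* rose, *WWTR1*, *CCN1*, *CCN2* and *AMOTL2* fell, and *TEAD1*, *TEAD4* and *LATS1* did not pass. Of all tested genes 52.5% passed that test, 26.8% higher and 25.8% lower. For 9 of the 10 genes the groups were apart, where 75.9% of all tested genes did not overlap. The median log2 fold change was 0.036 over the 10 genes and 0.00091 over all tested genes.

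**Figure D1:**
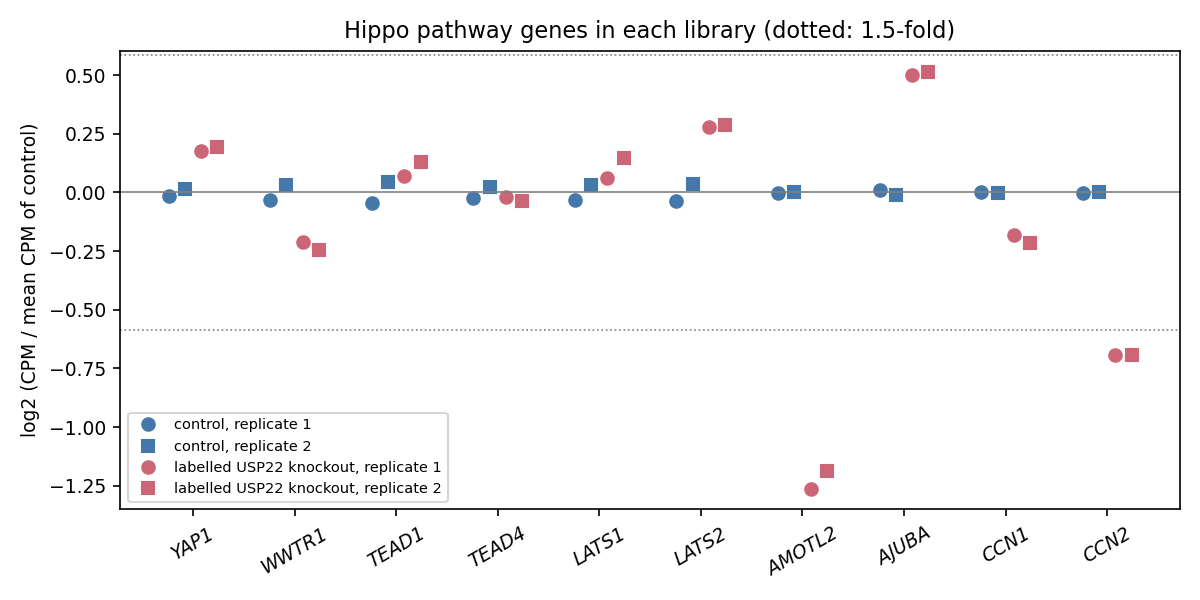
The plot gives, for each of the 10 genes, the log2 ratio of every library's CPM to the mean CPM of the 2 control libraries, with circles for replicate 1, squares for replicate 2 and dotted lines at 1.5-fold. *AMOTL2* and *CCN2* lie below the lower line in both libraries labelled *USP22* knockout, *AJUBA* lies just under the upper line, and only *TEAD4* overlaps between the groups.

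*YAP1* encodes the main co-activator and lies on the plus strand of chromosome 11 of hg38 from 102110447 to 102233424, with 9 exons in its canonical transcript. It had 121244 and 126947 counts in control and 149445 and 148544 in those labelled *USP22* knockout. Both of the latter were above both control libraries, at 2288 ± 18.98 (SD, n = 2) against 2012 ± 32.8 (SD, n = 2) CPM. The log2 fold change was 0.19 (standard error 0.027, edgeR adjusted p = 0.000256), a rise of 1.14-fold. With GC content and transcript length corrected for it was 0.060 and no longer passed (edgeR adjusted p = 0.0709).

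*WWTR1* encodes TAZ, the paralog of YAP1, and lies on the minus strand of chromosome 3 from 149517235 to 149736714. Its counts were 3942 and 4210 in control and 3752 and 3602 in the libraries labelled *USP22* knockout. The groups did not overlap, and *WWTR1* fell from 66.1 ± 2.004 CPM in control (SD, n = 2) to 56.5 ± 0.919 (SD, n = 2). The log2 fold change was -0.23 (standard error 0.048, edgeR adjusted p = 0.00279), while scaling to *GAPDH* gave 0.0046. Since *GAPDH* itself fell, that scaling raised the median of all tested genes by 0.23, so relative to the other genes *WWTR1* was lower there too. Per kb of transcript, *YAP1* exceeded *WWTR1* by a ratio of 28.7 and 28.1 in the control libraries and of 37.1 and 38.5 in the libraries labelled *USP22* knockout. This ratio did not overlap between the groups, but 2 against 2 libraries cannot give a two-sided exact permutation p below 0.333. An antisense gene, *WWTR1-AS1*, shares 756 exonic bases with *WWTR1* and had 0 to 9 counts, and the strand setting of the counts is not given in the sources used here.

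The TEAD factors tether YAP1 and TAZ to DNA. *TEAD1*, on the plus strand of chromosome 11 from 12674421 to 12944737, had 19644 and 21353 counts in control and 22947 and 23467 in those labelled *USP22* knockout. Its level was slightly higher in both of the latter, at 356 ± 10.1 (SD, n = 2) against 332 ± 14.2 (SD, n = 2) CPM. The log2 fold change was 0.10 and did not pass the test (edgeR adjusted p = 0.0573). Its direction turned once GC content and length were corrected for, and it then passed as lower (-0.11, edgeR adjusted p = 0.0286), whereas without control replicate 2 it passed as higher (0.15, edgeR adjusted p = 0.0161). *TEAD4*, on the plus strand of chromosome 12 from 2959330 to 3040676, had 1597 and 1685 counts in control and 1722 and 1672 in those labelled knockout. Those values overlapped once scaled, and the log2 fold change of -0.030 had a 95% interval from -0.19 to 0.13, which does not reach 1.5-fold in either direction (edgeR adjusted p = 0.750). Intervals given here are not adjusted for the number of genes. Of the summed level of *TEAD1*, *TEAD2*, *TEAD3* and *TEAD4* per kb, *TEAD1* made up 51.5% and 53.2% in control and 53.0% and 54.1% in the libraries labelled knockout. *TEAD4* came next with 23.0% and 23.1% in control and 21.9% and 21.2% in the others.

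LATS1 and LATS2 are the kinases that act directly on YAP1 and TAZ. *LATS1*, on the minus strand of chromosome 6 from 149658153 to 149718105, had 2646 and 2834 counts in control and 3049 and 3178 in those labelled *USP22* knockout. That difference was little larger than the gaps between replicates, with a log2 fold change of 0.11 (95% interval from -0.019 to 0.23, edgeR adjusted p = 0.140), and once GC content and length were corrected for it turned to -0.16 and passed (edgeR adjusted p = 0.0246). *LATS2*, on the minus strand of chromosome 13 from 20973036 to 21061586, had 2831 and 3044 counts in control and 3795 and 3754 in those labelled knockout. Its level rose without overlap, from 47.6 ± 1.67 CPM in control (SD, n = 2) to 58.0 ± 0.284 (SD, n = 2), and the log2 fold change was 0.28 (standard error 0.051, edgeR adjusted p = 0.00102). Per kb, *LATS2* exceeded *LATS1* by a ratio of 1.42 and 1.43 in control and of 1.65 and 1.57 in the libraries labelled knockout.

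AMOTL2, a motin, holds YAP1 at cell junctions and is itself induced by YAP1. *AMOTL2* lies on the minus strand of chromosome 3 from 134355347 to 134375479 and had 17896 and 18333 counts in control and 8047 and 8322 in those labelled *USP22* knockout. Among the 10 genes it had the largest change in either direction, from 294 ± 0.260 CPM in control (SD, n = 2) to 126 ± 4.57 (SD, n = 2). The log2 fold change was -1.22 (standard error 0.039, edgeR adjusted p = 1.93e-08), which is 2.34-fold lower, and omitting any 1 library gave values from -1.26 to -1.20. Its relatives *AMOTL1* and *AMOT* did not pass the test, with log2 fold changes of -0.043 and -0.38. Per kb, *AMOTL2* made up 89.5% and 88.7% of the 3 motin genes in control and 77.7% and 79.1% in the libraries labelled knockout.

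AJUBA, a LIM domain scaffold, binds LATS kinases and keeps them from acting on YAP1. *AJUBA* lies on the minus strand of chromosome 14 from 22971177 to 22982551 and had 3892 and 3923 counts in control and 5880 and 5843 in those labelled *USP22* knockout. Replicates lay close together and the groups far apart, at 63.4 ± 0.669 (SD, n = 2) and 90.0 ± 0.730 (SD, n = 2) CPM. The log2 fold change of 0.51 (standard error 0.042, edgeR adjusted p = 7.42e-06) is a rise of 1.42-fold, below the 1.5-fold threshold. *LIMD1* and *WTIP*, of the same protein family, did not pass the test, with -0.081 and -0.28.

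*CCN1* and *CCN2*, the former *CYR61* and *CTGF*, encode secreted matricellular proteins and are the readouts of YAP1 activity in common use. *CCN2* lies on the minus strand of chromosome 6 from 131948176 to 131951372 and had 2860 and 2940 counts in control and 1912 and 1876 in those labelled *USP22* knockout. The level fell from 47.0 ± 0.157 CPM in control (SD, n = 2) to 29.1 ± 0.0252 (SD, n = 2), which is on the log2 scale a change of -0.69 (standard error 0.056, edgeR adjusted p = 5.9e-06), or 1.62-fold lower. Tested against a change of 1.5-fold rather than 0, *CCN2* did not pass (edgeR adjusted p = 0.130), while *AMOTL2* did. *CCN1* lies on the plus strand of chromosome 1 from 85580761 to 85584589 and had 28754 and 29346 counts in control and 27270 and 26206 in those labelled knockout. The groups did not overlap, but the step was small, from 471 ± 0.830 CPM in control (SD, n = 2) to 410.5 ± 6.39 (SD, n = 2), and the log2 fold change was -0.20 (standard error 0.032, edgeR adjusted p = 0.000556), which scaling to *GAPDH* turned to 0.033, again under the shift of 0.23. The ratio of *CCN1* to *CCN2* per kb was 10.3 and 10.2 in control and 14.6 and 14.3 in the libraries labelled knockout.

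Levels of different genes were compared per kb of the canonical GENCODE transcript. *YAP1* was the most abundant, at 372 ± 6.08 (SD, n = 2) CPM per kb in control, and its mean over the 4 libraries ranked 131 of the 14384 tested genes with a length. *CCN1* followed with 207 ± 0.364 (SD, n = 2) CPM per kb. *AMOTL2*, *TEAD1*, *CCN2*, *TEAD4*, *AJUBA*, *WWTR1*, *LATS2* and *LATS1* came next in control, from 60.3 down to 6.03 CPM per kb. The ranges of neighbours in this order did not overlap, although *TEAD4* (15.3 and 15.8) and *AJUBA* (15.3 and 15.1) differed by less than 1 SD of *TEAD4* at their nearest libraries. In the libraries labelled *USP22* knockout, *AMOTL2* at 25.8 CPM per kb lay below *TEAD1* at 37.8, *AJUBA* at 21.6 lay above *TEAD4* at 15.2, and *CCN2* at 12.4 lay below both.

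**Figure D2:**
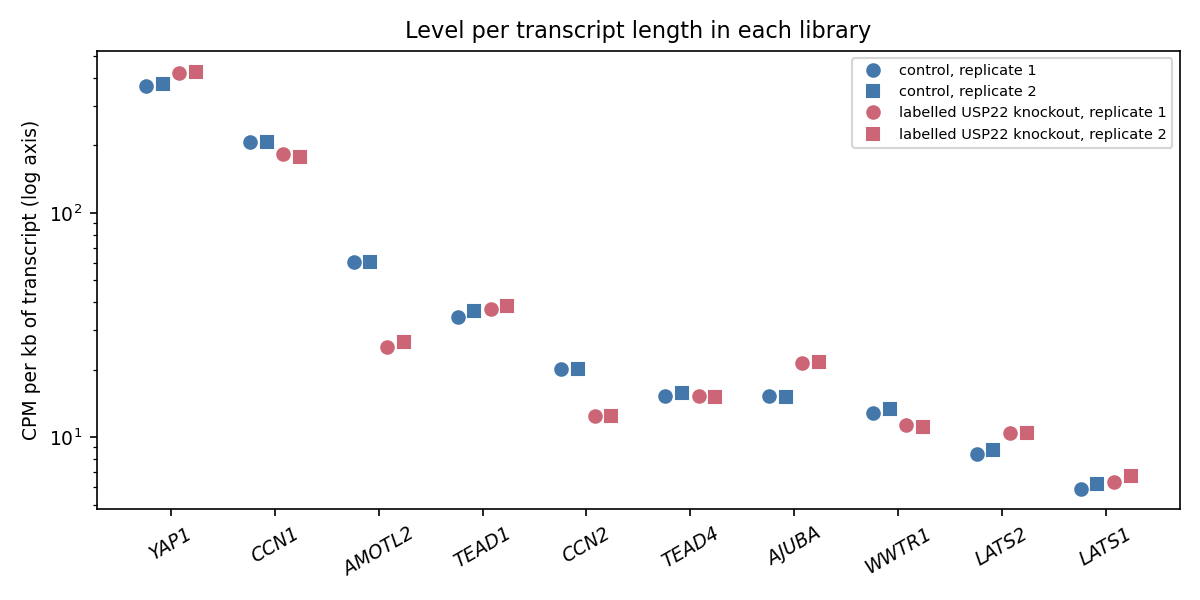
Points give the CPM per kb of transcript in each library on a log axis, ordered by the control mean, with circles for replicate 1 and squares for replicate 2. *YAP1* and *CCN1* stand at or above 178 CPM per kb in all 4 libraries, and *LATS1* is lowest at 5.89 to 6.69.

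Of the wider set of YAP1 and TAZ targets, more genes were called lower than higher. Of 22 genes of a commonly used target signature, which holds *AMOTL2*, *CCN1*, *CCN2* and *LATS2*, all 22 were tested, 9 were called lower (40.9%) and 0 were called higher, beside 7.25% and 8.88% of all tested genes. The median log2 fold change of the 22 was -0.17. Without those 4 genes, 7 of 18 were called lower, but the median was -0.064, with 9 values above 0 and 9 below. The same count of 9 stood with each library left out in turn and once GC content and length were corrected for, and 8 were called when tested against 1.5-fold.

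*ANKRD1*, a nuclear ankyrin repeat cofactor, had 211 and 146 counts in control and 19 and 20 in those labelled *USP22* knockout, a log2 fold change of -3.27 (standard error 0.31, edgeR adjusted p = 1.78e-05). It was a low-level gene, at 2.90 ± 0.792 (SD, n = 2) CPM in control, so the size of its change carries the widest interval of the set, from -3.97 to -2.57. *IGFBP3*, which binds insulin-like growth factors, fell from 127 ± 4.94 CPM in control (SD, n = 2) to 50.2 ± 1.01 (SD, n = 2), on the log2 scale a change of -1.34 (edgeR adjusted p = 3.02e-08). *NUAK2*, a kinase of the AMPK family, had 2070 and 1939 counts in control and 1037 and 1057 counts in the other libraries, a log2 fold change of -1.02. The ectonucleotidase gene *NT5E* (-0.84), the receptor tyrosine kinase gene *AXL* (-0.80), the stress gene *GADD45A* (-0.79) and the membrane repair gene *MYOF* (-0.71) were also called lower.

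Other members of the signature went the opposite way or did not move past the test. *CRIM1* (0.39), *LATS2* (0.28), *ARHGEF17* (0.26), *PTPN14* (0.25) and *DOCK5* (0.21) rose by less than 1.5-fold. *CCN1* (-0.20) and *CCDC80* (-0.19) fell by less than 1.5-fold, and the remaining 6 genes, *ASAP1*, *F3*, *FJX1*, *FOXF2*, *RBMS3* and *TGFB2*, lay between -0.15 and 0.17 and did not pass. Signature genes therefore did not share 1 direction.

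**Figure D3:**
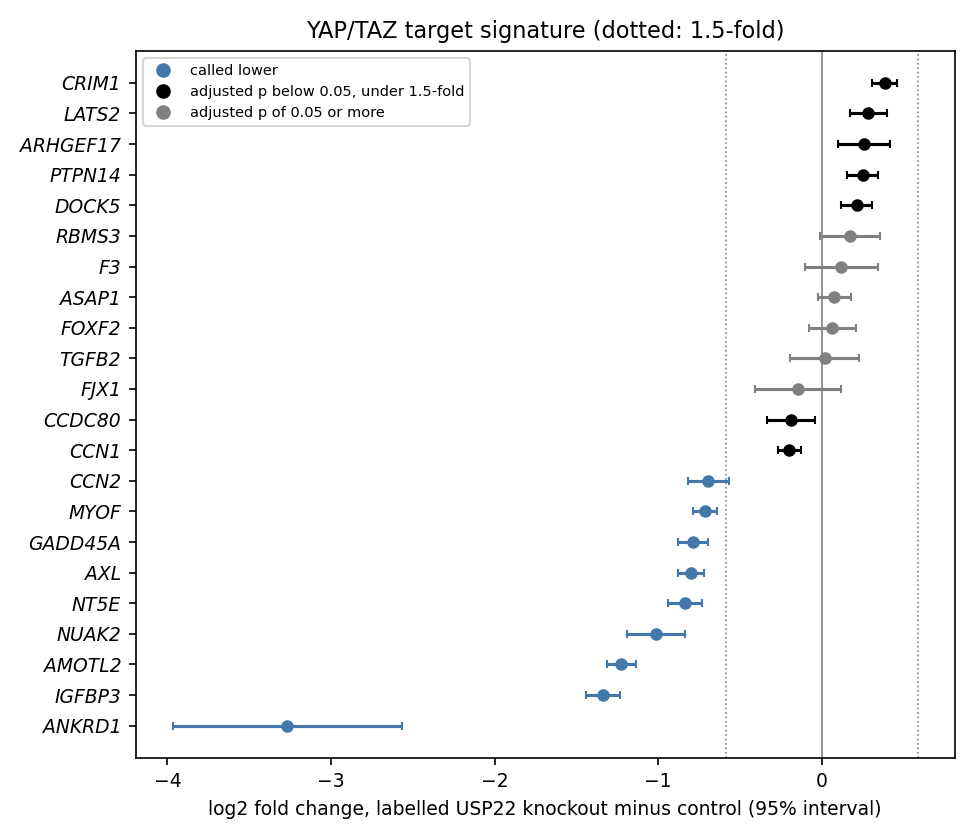
Each point is the log2 fold change of a signature gene, libraries labelled *USP22* knockout minus control, with its 95% interval, and dotted lines mark 1.5-fold. The 9 genes called lower run from *CCN2* at -0.69 to *ANKRD1* at -3.27, and no gene reaches the upper line, with *CRIM1* highest at 0.39.

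Upstream of YAP1, the calls among kinases and scaffolds depended on whether GC content and length were corrected for. Of 27 listed genes 26 were tested, *DCHS1* being at 0 in all 4 libraries, and 4 were called higher (15.4%) and 1 lower (3.85%), beside 8.88% and 7.25% of all tested genes, and once corrected 1 was higher and 1 lower. With the fold left aside 14 of the 26 rose and 2 fell, where 26.8% and 25.8% of all tested genes did, and the median log2 fold change was 0.16. That count and median were taken without the correction and not with it. With it *LATS1* went from 0.11 to -0.16, while *LATS2* went only from 0.28 to 0.27. *TAOK2*, which activates the Hippo kinases, had 743 and 639 counts in control and 1506 and 1452 in those labelled *USP22* knockout, a log2 fold change of 1.02 (edgeR adjusted p = 2.42e-05). *MOB1B*, a LATS activator (0.70), *MAP4K3* (0.64) and *TAOK1* (0.62) were also called higher. Once GC content and length were corrected for they were at 0.34, 0.46 and 0.31, and only *TAOK2*, at 1.12, was still called. *FRMD6*, a cortical scaffold, was called lower, with 2958 and 3169 counts in control and 1950 and 1934 counts in the others (-0.74). The central kinase genes *STK4* (0.36) and *STK3* (0.088) encode MST1 and MST2, and only *STK4* passed the test. *WWC1*, which encodes the scaffold KIBRA, rose by 0.55, just under the threshold.

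A further list held genes for proteins that bind YAP1 and TAZ, mark them for degradation or, like AJUBA, LIMD1 and WTIP, bind the LATS kinases. Of its 19 genes, 1 was called lower, *AMOTL2*, which at 5.26% is near the 7.25% of all tested genes, and 0 were called higher, beside 8.88%. Among the 7 genes for 14-3-3 proteins, which retain phosphorylated YAP1 in the cytoplasm, *YWHAG* (-0.30) and *YWHAE* (-0.18) fell and the other 5 did not pass. *CSNK1D* (0.30) and *CSNK1E* (-0.45), which encode a pair of kinases that phosphorylate YAP1 ahead of its degradation, moved in opposite directions. *TJP1*, which encodes the junction protein ZO-1, rose by 0.44.

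Of 10 effectors and DNA-binding partners 8 were tested and 0 were called, beside 16.1% of all tested genes in either direction. *VGLL1* was at 0 in all libraries and *VGLL2* had at most 3 counts. Besides *YAP1* and *WWTR1*, only *TEAD2* passed the test (0.24), while *TEAD3* (-0.092), *VGLL3* (0.073) and *VGLL4* (0.053) did not.

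AP-1 factors bind enhancers together with YAP1 and TEAD. Of 7 genes tested, *JUN* and *FOSL1* were called lower and *FOS* was called higher, beside 7.25% and 8.88% of all tested genes. With so few genes these shares are not compared. *JUN* had 4410 and 4402 counts in control and 2326 and 1967 in those labelled *USP22* knockout, a log2 fold change of -1.12 (edgeR adjusted p = 1.15e-06). *FOS* had 2815 and 2722 counts in control and 5551 and 5480 counts in the others, a log2 fold change of 0.92 (edgeR adjusted p = 4.68e-07). *FOSL1* had a log2 fold change of -0.70 and was below 1.5-fold once GC content and length were corrected for (-0.52). *JUND* (0.43) and *FOSL2* (0.16) rose by less than 1.5-fold, and *JUNB* (-0.0095) and *FOSB* (-0.33) did not pass.

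**Figure D4:**
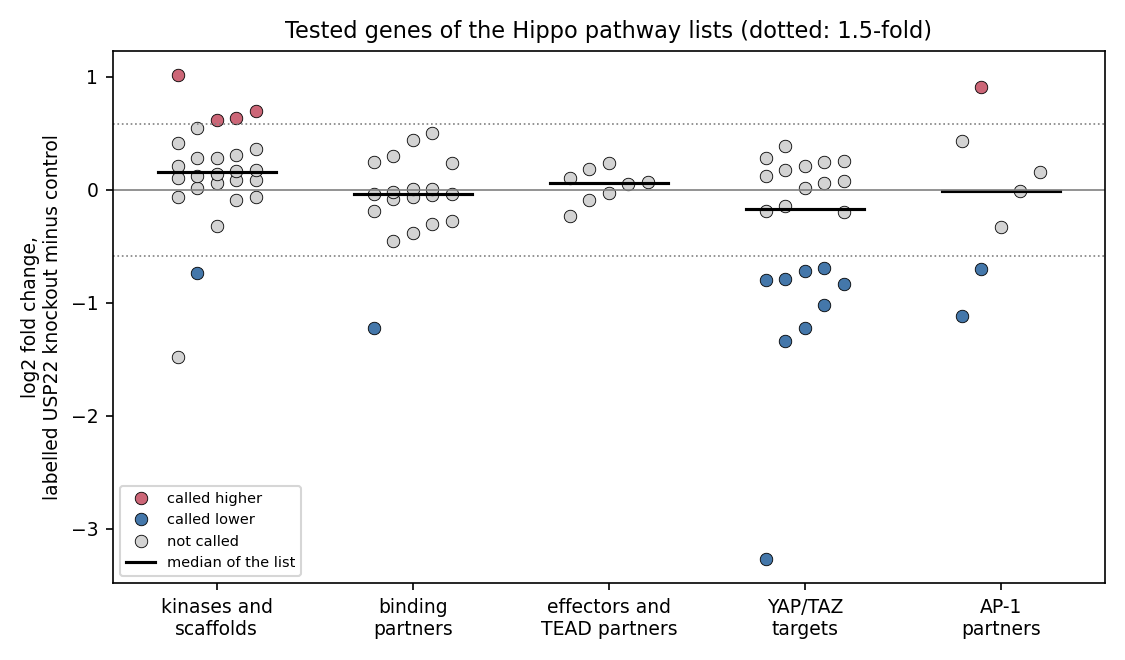
Each point is a tested gene of a pathway list, placed by its log2 fold change, libraries labelled *USP22* knockout minus control, with red for called higher, blue for called lower, grey for not called, a bar for the list's median and dotted lines at 1.5-fold. The 9 blue points among YAP/TAZ targets stand beside 0 red ones, and the kinases and scaffolds have 4 red points and 1 blue.

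Chromosomal position was set beside each gene, since in places neighbouring genes differed together between these libraries. The tested genes starting within 5 Mb of *LATS2* numbered 27, with a median log2 fold change of 0.45 and 11 called higher, so *LATS2* at 0.28 rose less than its neighbours' median. *YAP1* at 0.19 lay close to the median of its 16 neighbours, 0.20, and *LATS1* at 0.11 lay below that of its 40 neighbours, 0.19. *AMOTL2* at -1.22 and *CCN2* at -0.69 lay apart from their neighbours, whose medians were 0.12 over 49 genes and 0.052 over 36 genes. *AJUBA* also differed from its 88 neighbours, with a median of -0.097. Among the signature genes, *ANKRD1* and *MYOF* start at 90912096 and 93306429 on chromosome 10, where the neighbours had a median of -0.38 and 12 of 58 and 20 of 66 were called lower. *NT5E* lay opposite to its 35 neighbours, whose median was 0.27. Of the called kinases and scaffolds, *MOB1B* had 25 neighbours with a median of 0.36, of which 5 were called higher. The neighbours' medians were nearer 0 for *TAOK2* (-0.096), *TAOK1* (0.020), *MAP4K3* (0.066) and *FRMD6* (0.14). The part of position in these values was not tested.

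**Figure D5:**
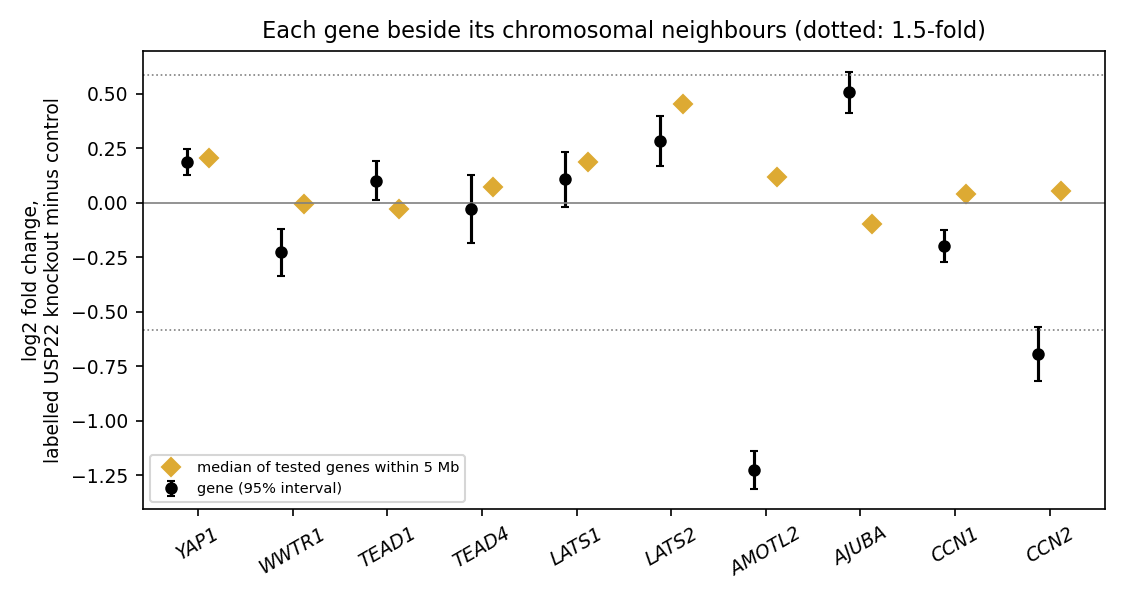
Black points give the log2 fold change of each of the 10 genes, libraries labelled *USP22* knockout minus control, with its 95% interval, and yellow diamonds give the median of the tested genes that start within 5 Mb of it. *AMOTL2*, *CCN2* and *AJUBA* stand far from their diamonds, whereas *YAP1* overlaps its own.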

How the data were processed

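The deposited file holds whole-number gene counts of 4 libraries, not divided by library size. The authors aligned reads to hg38 with HISAT2 2.2.1 and calculated the counts with StringTie 2.2.1. The annotation and the strand setting are not given in the sources used here. All columns were assigned to samples by name.

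The test was run on these counts with edgeR 4.0.16 (R 4.3.3), using TMM factors, the filterByExpr filter (minimum 10 counts) and a glmQLFit and glmQLFTest over all genes. Each standard error is the size of the log2 change over the root of its F statistic. A called gene passed an adjusted p of 0.05 and changed 1.5-fold or more, as in the study's methods. Where a gene was at 0 the limit was taken as 3 counts, which is 0.0457 to 0.0492 CPM and covers counting error only. The mean chi-square per gene between replicates was 7.91 in control and 8.44 in the libraries labelled *USP22* knockout, above sampling noise. Procedures were tested on simulated data.

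Of the 28278 symbols, 25763 were matched to GENCODE 44 for positions, lengths and GC content. Upstream windows come from RefSeq. The genes and lists were chosen with earlier results of these data known, and the text names the 10 genes, every called gene of the lists, and other listed genes as examples chosen after their values were seen. Alternatives were DESeq2 1.42.0, RLE factors, library size alone, scaling to *GAPDH*, the replicate number as a block, dropping the filter on low counts, a minimum mean of 50 counts, no fold threshold, a test against 1.5-fold, a lowess correction for GC content and transcript length with a span of 0.3, and leaving out each library.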

Additional observations from a re-analysis of the deposited data

How the results depend on the processing

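With 2 libraries per group, small changes rest on the scaling and on GC content and length, and no alternative changed which direction *AMOTL2*, *CCN2*, *AJUBA* and *LATS2* took. The 2 genes called lower and 0 called higher stood in every fit but those of the next sentences. Without the fold threshold, by its construction, 4057 genes were higher and 3904 lower, 3 of the 10 genes were higher and 4 lower, the pathway lists had 29 higher and 20 lower against 5 and 13, and the target signature had 5 higher against 0. Those lists together, CCN family included, hold 86 genes, of which 83 were tested. The 5 are 6.02% and the 13 are 15.7%, beside 8.88% and 7.25% of all tested genes. The 13 include *CCN4*, which was tested only because of its control counts. Tested against 1.5-fold, 578 genes were higher and 428 lower, 1 of the 10 genes was lower and the lists had 2 higher. In that test *YAP1* (0.19), *WWTR1* (-0.23), *LATS2* (0.28), *CCN1* (-0.20) and *AJUBA* (0.51) did not pass, their changes being under 1.5-fold, and *CCN2* (-0.69), beyond it, did not pass either, at an edgeR adjusted p of 0.130.

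With GC content and length corrected for, the lists had 3 genes higher, *YAP1* was at 0.060 and did not pass, and *TEAD1* (-0.11), *TEAD4* (0.16) and *LATS1* (-0.16) changed direction, *TEAD1* and *LATS1* then passing the test as lower. The cause was not tested. With library size alone *TEAD4* reversed to 0.022, and *TEAD1* (0.15) and *LATS1* (0.16) passed the test. *TEAD1* also passed with DESeq2 (0.10), and the cause was not tested. Scaling to *GAPDH*, which has no test and moved the median of all tested genes by 0.23, gave 0.42 for *YAP1*, 0.0046 for *WWTR1*, 0.33 for *TEAD1*, 0.20 for *TEAD4*, 0.34 for *LATS1*, 0.52 for *LATS2*, 0.033 for *CCN1*, -0.46 for *CCN2*, -0.99 for *AMOTL2* and 0.74 for *AJUBA*.

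Replicate numbers were not taken as pairs: libraries sharing a number deviated from their group means with a correlation of only 0.042 over genes, and the labels tie no number to a shared batch. Fitting the replicate block called 1341 genes higher and 1100 lower, called 14 genes of the lists lower, and *TEAD1* passed at 0.10. With each library left out in turn, where a lone library is assumed to vary like the others, 1158 to 1400 genes were higher and 995 to 1139 lower, *TEAD1* ranged from 0.057 to 0.15, *YAP1* from 0.17 to 0.20, *CCN2* from -0.71 to -0.69 and *AJUBA* from 0.50 to 0.52.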

Other observations

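The CCN family holds further secreted matricellular proteins that are not standard YAP1 readouts. *CCN3* had 1799 and 1731 counts in control and 2831 and 2725 in those labelled *USP22* knockout, a log2 fold change of 0.58 (edgeR adjusted p = 3.9e-05) and so under the 1.5-fold threshold. *CCN5*, which lacks the C-terminal domain of its relatives, rose by 0.26 (edgeR adjusted p = 0.00528). *CCN4* had 16 and 14 counts in control and was listed at 0 in both libraries labelled knockout, at least 5.28-fold lower against a floor of 3 counts per library. It was tested only because of its control counts, so it had to differ. *CCN6* had 8 to 17 counts in the 4 libraries and did not pass the test.

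*FAT4*, an atypical cadherin that acts at the top of the pathway, rose by 0.42 (edgeR adjusted p = 0.00075), with 1305 and 1345 counts in control and 1906 and 1835 in those labelled *USP22* knockout. *FAT1*, its relative, had a log2 fold change of 0.14 and did not pass (edgeR adjusted p = 0.0538). Both values are from the fit without the correction for GC content and length.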
